A study of Mus musculus with 4 samples.

Results

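The genes described here encode the rod phototransduction cascade, the protein chain by which a rod photoreceptor turns the capture of light into an electrical signal. They were chosen by gene name: Gnat1, Gngt1, Pde6a, Pde6b, Pde6g, Cnga1, Cngb1, Sag and Rcvrn. These 9 names occurred on 10 of the 22690 entries of the deposited table, because Cngb1 stands there under 2 Ensembl identifiers. RNA was sequenced from retinal cells of mice on postnatal day 2. Flow sorting kept cells with a 4N DNA content, that of cells between the copying of their DNA and division. One group of 2 libraries came from GFP-positive cells labelled Casz1 cKO, a conditional knockout of the zinc finger factor gene Casz1, and the other group of 2 libraries from GFP-negative cells labelled wild type (WT). Both groups are of strain C57BL/6. Every GFP-positive library is labelled cKO and every GFP-negative one WT, so GFP fraction and genotype differ together and cannot be told apart. The sources used here do not give what drives the deletion, whether both fractions came from the same retinas, or how many animals each library holds. P-values therefore measure only the spread between these libraries.

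In a rod, the visual pigment, once activated by light, switches on transducin, a G protein of an alpha, a beta and a gamma subunit. Transducin releases the catalytic subunits of a phosphodiesterase from their inhibitory subunit, the enzyme breaks down cyclic GMP, and cation channels held open by cyclic GMP close. Arrestin and recoverin act on the switching off of the pigment. In the mouse, rods are born around and after birth from dividing retinal progenitors and build their outer segments later, so on postnatal day 2 rods are precursors.

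Of the 10 rod cascade entries, 9 were lower in both cKO libraries than in both WT libraries, and 1, Gnat1, was not. Both cKO libraries lay below both WT libraries for 22.3% of all 14480 genes tested. The median log2 fold change of the 10 entries was −0.98, against −0.03 over all genes tested. A fold change here is the difference of group means of log2(normalized count + 1), cKO minus WT, and the normalized count is the read count divided by a size factor of its library. None of the 10 entries passed: limma gave 0 calls at an adjusted p under 0.05 (0% of all genes tested), with the lowest adjusted p = 0.771. At an unadjusted p under 0.05, limma gave 5 of the 10 entries, all lower, against 1.70% of all genes tested called lower by that rule. These 5 were Gngt1, Pde6b, Sag and both entries of Cngb1. In a bulk sample, fewer cells of a type and less RNA per cell cannot be told apart.

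**Figure D1:**
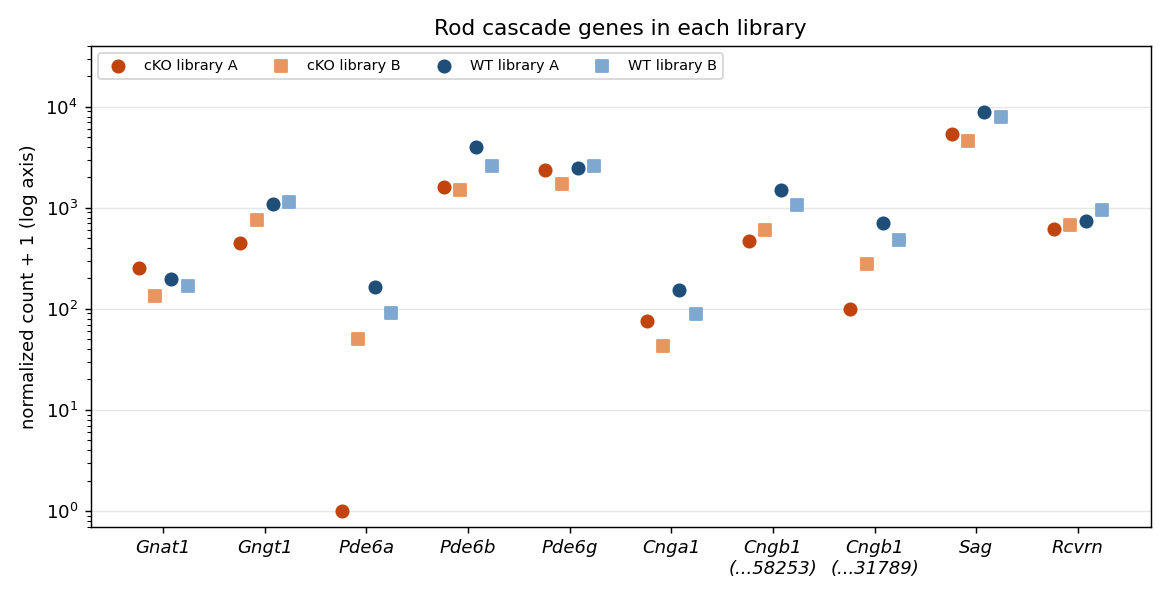
Normalized count plus 1 (log axis) of each rod cascade entry in cKO libraries A and B and WT libraries A and B. Both cKO points lie below both WT points for every entry except Gnat1, and Pde6a is listed at 0 in cKO library A.

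Libraries are called A and B by 2 tags in the column names, each on 1 library per group. cKO library A was the shallowest, with 22326119 reads in genes, against 75832360 to 89473701 in the other libraries, and it stood apart: across genes it correlated with the others at 0.902 to 0.918, whereas those correlated among themselves at 0.988 to 0.993. Casz1 had normalized counts of 8687 and 10772 in cKO libraries A and B, against 13162 and 11995 in WT libraries A and B (limma, adjusted p = 0.771). Reads over the whole gene can come from outside a deleted part. The cells carried retinal and dividing-cell markers in both groups: the summed normalized counts of 8 retinal progenitor genes were 193597 and 204602 in cKO and 172359 and 189151 in WT, and those of 8 G2/M genes were 162253 and 152950 in cKO and 131307 and 144993 in WT. In each list 7 of 8 genes were higher in cKO, at median log2 fold changes of 0.14 (progenitor) and 0.39 (G2/M), and limma called 0. The lower ones were Pax6 at −0.15 and Mki67 at −0.51. The 12 microglial markers shared the direction of the rod cascade genes, and in both lists the median difference was larger between the A libraries. The median log2 difference of the markers, cKO minus WT, was −4.06 between the A libraries and −1.19 between the B libraries. For the rod cascade entries it was −1.14 and −0.78. All 12 were lower in both cKO libraries, and limma called 0 (10 at an unadjusted p under 0.05). Their summed normalized counts were 2313 and 11389 in cKO libraries A and B and 24516 and 24139 in WT libraries A and B. Aif1 was listed at 0 in cKO library A. In the authors' deposited table, where 0.28% of genes were called lower, most of the markers had an adjusted p under 0.05. The lowest of the markers there was 0.000144 (Cx3cr1). Their part in the results was not tested.

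Promoter windows from RefSeq (GRCm38.p6, 250 bases before to 50 bases after the start used for each window) were found for 5 of the 9 names. Shown here are those of the 3 genes that had the smallest p among the rod cascade entries, Cngb1, Pde6b and Sag. Capitals mark TAATCC, the core bound by the homeodomain factors OTX2 and CRX, and TGCTGA, a part of the element bound by the rod factor NRL, each searched on both strands (as GGATTA and TCAGCA on the other strand).
Cngb1: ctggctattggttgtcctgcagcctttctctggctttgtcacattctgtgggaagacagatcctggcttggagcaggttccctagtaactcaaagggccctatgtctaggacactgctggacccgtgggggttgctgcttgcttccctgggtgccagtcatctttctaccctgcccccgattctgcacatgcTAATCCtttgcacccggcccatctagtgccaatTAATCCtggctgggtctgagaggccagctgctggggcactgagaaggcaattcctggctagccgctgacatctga
Pde6b: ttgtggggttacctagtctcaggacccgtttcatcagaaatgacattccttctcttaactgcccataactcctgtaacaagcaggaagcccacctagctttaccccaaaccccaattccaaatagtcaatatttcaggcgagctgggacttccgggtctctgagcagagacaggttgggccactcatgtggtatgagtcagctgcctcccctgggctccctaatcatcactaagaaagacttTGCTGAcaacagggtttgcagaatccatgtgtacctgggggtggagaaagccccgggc
Sag: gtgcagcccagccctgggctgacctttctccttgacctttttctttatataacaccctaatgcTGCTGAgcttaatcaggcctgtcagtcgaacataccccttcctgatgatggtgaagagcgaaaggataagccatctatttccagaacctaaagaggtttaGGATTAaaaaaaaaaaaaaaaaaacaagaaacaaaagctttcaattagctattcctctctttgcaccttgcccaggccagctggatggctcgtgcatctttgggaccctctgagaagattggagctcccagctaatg
The Cngb1 window lies at chr8:95306536-95306835 on the minus strand and holds TAATCC at 2 places, beginning 58 and 25 bases before the start. The Pde6b window lies at chr5:108388123-108388422 on the plus strand and holds TGCTGA 8 bases before the start and no TAATCC. The Sag window lies at chr1:87803430-87803729 on the plus strand, with TAATCC on the opposite strand 87 bases before the start and TGCTGA 187 bases before it. The windows of Gngt1 (chr6:3993758-3994057) and Cnga1 (chr5:72642703-72643002) hold TAATCC once each, 44 bases before the start on the opposite strand and 228 bases before it. For Gngt1, Cnga1 and Pde6b the start used is not the gene start of the GENCODE M21 annotation given below. The Gngt1 and Cnga1 matches lie inside those genes as GENCODE M21 places them, not before them. Among all 32851 promoter windows of 300 bases, 7.06% hold TAATCC and 19.5% hold TGCTGA on either strand. A match is a run of letters and does not show that a factor binds.

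Of the rod transducin subunits, gamma was lower in both cKO libraries and alpha was not. Gnat1 (chromosome 9, 107674474 to 107679712 of GRCm38, minus strand) encodes the rod transducin alpha subunit, which binds GTP and switches on the phosphodiesterase. Gnat1 had normalized counts of 251 and 132 in cKO libraries A and B, against 195 and 169 in WT libraries A and B. The cKO libraries lay on either side of the WT libraries, at 192 ± 84.8 in cKO and 182 ± 18.4 in WT (SD, n = 2 each), with a log2 fold change of 0.00 (SE 0.46; limma, adjusted p = 0.999). The 95% counting interval (exact Poisson) of cKO library A was 202 to 309 and that of cKO library B was 114 to 151, so the cKO libraries differed from each other beyond counting error. Without cKO library A the Gnat1 log2 fold change was −0.46. Gngt1 (chromosome 6, 3993792 to 3997436, plus strand) encodes the gamma subunit that anchors rod transducin to the membrane. Gngt1 had 450 and 752 in cKO libraries A and B, against 1081 and 1148 in WT libraries A and B. Both cKO values lay below both WT values, with means of 601 ± 214 in cKO and 1114 ± 47.2 in WT (SD, n = 2 each), so cKO had 53.9% of WT. The log2 fold change of Gngt1 was −0.94 (SE 0.31; limma, adjusted p = 0.771). The beta subunit, Gnb1, is also used by many other cells; it had 48144 and 35315 in cKO libraries A and B and 35416 and 36641 in WT libraries A and B, and its groups overlapped.

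The catalytic subunits of the rod phosphodiesterase were lower and its inhibitory subunit differed least. Pde6b (chromosome 5, 108388391 to 108432397, plus strand) encodes the beta catalytic subunit. Pde6b had normalized counts of 1615 and 1493 in cKO libraries A and B, against 3989 and 2595 in WT libraries A and B. The cKO libraries lay close together and below the lower WT library, at 1554 ± 85.9 in cKO and 3292 ± 985 in WT (SD, n = 2 each), so cKO had 47.2% of WT. The log2 fold change of Pde6b was −1.05 (SE 0.26; limma, adjusted p = 0.771). Pde6a (chromosome 18, 61220315 to 61289924, plus strand) encodes the alpha catalytic subunit, which pairs with the beta subunit. Pde6a had 0 reads in cKO library A and a normalized count of 49.6 in cKO library B, against 163 and 89.0 in WT libraries A and B. With 0 reads in cKO library A, 3 reads, or a normalized count of 8.38, is the level that a count of 0 allows there. By counting error alone, that makes the library at least 19.5-fold lower than WT library A for Pde6a. Floors and intervals cover counting error only. Of the 14480 genes tested, 1074 were listed at 0 in cKO library A, so a 0 there is not particular to Pde6a. The fitted log2 fold change of −4.10 (SE 1.95; limma, adjusted p = 0.771) depends on the added 1 and is no measured size. cKO library B had 55.7% of WT library B for Pde6a. Pde6g (chromosome 11, 120447605 to 120453500, minus strand) encodes the inhibitory gamma subunit. Pde6g had 2392 and 1707 in cKO libraries A and B, against 2492 and 2611 in WT libraries A and B. The groups did not overlap, but cKO library A came close: its counting interval, 2234 to 2557, overlaps the 2408 to 2579 of WT library A. The log2 fold change of Pde6g was −0.34 (SE 0.23; limma, adjusted p = 0.771), and cKO had 80.3% of WT.

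Both channel genes were lower in cKO libraries. Cngb1 encodes the beta subunit of the rod channel that cyclic GMP opens and, from its first part, soluble glutamic acid-rich proteins of the outer segment. Of its 2 entries, ENSMUSG00000031789 is the Cngb1 gene of GENCODE M21 (chromosome 8, 95239045 to 95306585, minus strand), and ENSMUSG00000058253 was not matched there, so how reads were divided between them is unknown and each value is uncertain. The entry ENSMUSG00000058253 of Cngb1 had normalized counts of 472 and 596 in cKO libraries A and B, against 1487 and 1069 in WT libraries A and B. Its log2 fold change was −1.25 (SE 0.27; limma, adjusted p = 0.771), and cKO had 41.8% of WT. The entry ENSMUSG00000031789 of Cngb1 had 97.8 and 278 in cKO libraries A and B, against 714 and 478 in WT libraries A and B. Both entries had all cKO values below all WT values, and the second had a log2 fold change of −1.82 (SE 0.56; limma, adjusted p = 0.771). Summed, the entries of Cngb1 gave 570 and 874 in cKO libraries A and B, against 2202 and 1547 in WT libraries A and B. The entry ENSMUSG00000031789 held 17.2% and 31.8% of that sum in cKO libraries A and B, against 32.4% and 30.9% in WT libraries A and B. It rests on 35 reads in cKO library A, and without that library its log2 fold change was −1.07. Cnga1 (chromosome 5, 72603696 to 72644275, minus strand) encodes the alpha subunit of the same channel. Cnga1 had 75.4 and 42.3 in cKO libraries A and B, against 154 and 88.3 in WT libraries A and B. The groups of Cnga1 did not overlap, with 48.6% of WT in cKO and a log2 fold change of −1.03 (SE 0.63; limma, adjusted p = 0.771). The 27 reads of cKO library A gave a counting interval of 49.7 to 110, which overlaps the 73.7 to 105 of WT library B. Between libraries of the same tag the log2 difference of Cnga1 was −1.02 (A) and −1.04 (B).

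Of the genes for shutting off the visual pigment, arrestin stood at a smaller share of WT than recoverin, a difference between genes that was not tested. Sag (chromosome 1, 87803680 to 87845158, plus strand) encodes rod arrestin, which binds the phosphorylated pigment and stops it from activating transducin. Sag had normalized counts of 5420 and 4626 in cKO libraries A and B, against 8888 and 7967 in WT libraries A and B. The values of each group lay close together and apart from the other group, at 5023 ± 561 in cKO and 8427 ± 652 in WT (SD, n = 2 each), so cKO had 59.6% of WT. Sag had the smallest standard error of the 10 entries, with a log2 fold change of −0.75 (SE 0.18; limma, adjusted p = 0.771), and its log2 difference was −0.71 between the A libraries and −0.78 between the B libraries. Rcvrn (chromosome 11, 67695326 to 67703333, plus strand) encodes recoverin, a calcium sensor that holds back the kinase of the pigment and is also made by cones and some bipolar cells. Rcvrn had 615 and 674 in cKO libraries A and B, against 736 and 956 in WT libraries A and B. The groups did not overlap, but the counting interval of cKO library B, 633 to 716, overlaps the 691 to 784 of WT library A. The log2 fold change of Rcvrn was −0.38 (SE 0.25; limma, adjusted p = 0.771), and cKO had 76.1% of WT.

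**Figure D2:**
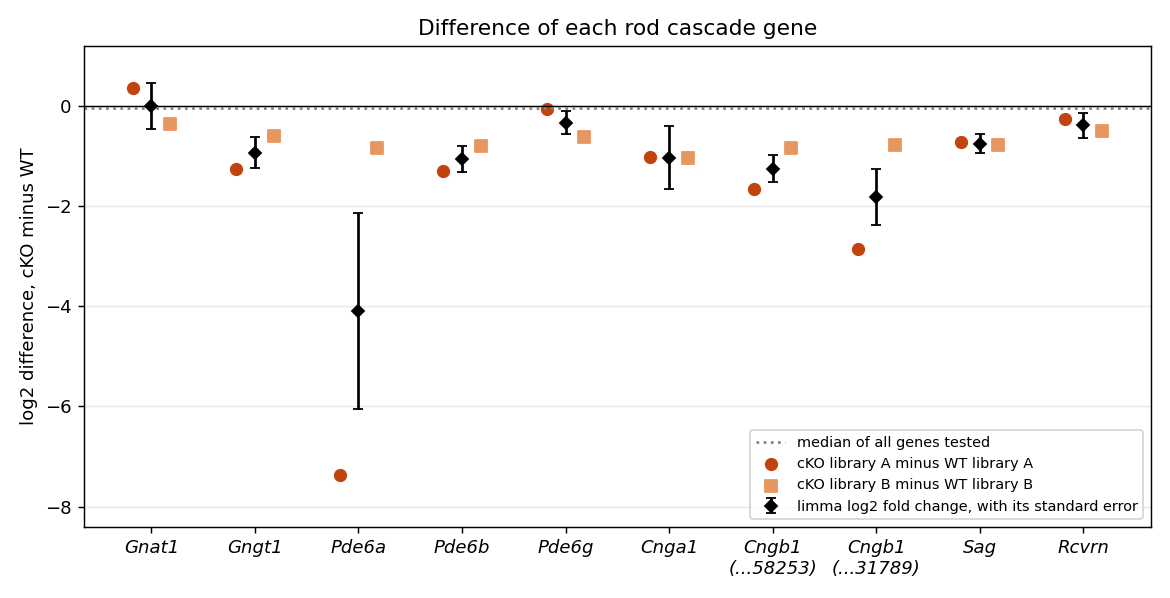
Log2 difference, cKO minus WT, of each rod cascade entry: between the libraries of tag A (circles), between those of tag B (squares), and the limma log2 fold change with its standard error (diamonds, n = 2 libraries per group). At tag B all 10 entries lie below 0, at tag A 9 do, and the point of Pde6a at tag A rests on a library listed at 0.

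Within tags, 9 of the 10 entries were lower in cKO at tag A, where 53.2% of all genes tested were, and 10 of 10 at tag B, where 50.7% were. The median log2 difference was −1.14 between the A libraries and −0.78 between the B libraries, where over all genes tested it was −0.05 and 0.00. Without cKO library A, the library that stood apart, limma called 3 of the 10 entries, all lower, where 0.502% of genes were called lower, a fit in which cKO library B is taken to vary as much as the WT libraries do. These were Pde6b (log2 fold change −1.11, adjusted p = 0.00169), Sag (−0.86, adjusted p = 0.00919) and the entry ENSMUSG00000058253 of Cngb1 (−1.08, adjusted p = 0.0107). Without cKO library B, limma called 6 of the 10 entries lower, where 26.4% of genes were called lower. Without WT library A or WT library B it called 0 of the 10 (0% of genes called lower in each). In the authors' deposited table, 0.28% of genes with an adjusted p were called lower, and 2 of the 10 entries were: Pde6b with an adjusted p of 0.0339 and the entry ENSMUSG00000058253 of Cngb1 with 0.0446. Sag stood at 0.0504 in the authors' deposited table. On the recovered reads DESeq2 called 0 of the 10 entries, where 0.00572% of genes were called lower, and with the column tags as a block it called 1, Pde6b, where 0.322% were.

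Per kilobase of annotated exon, the cascade genes were present at very different levels. The length counts every base in any annotated exon of a gene (3515 for Gngt1, 8904 for Sag), not the RNA made in these cells. The order of genes and the size of a ratio between genes depend on that length. A comparison of the same ratio between libraries does not. In cKO the order of mean normalized count per kilobase was Pde6g at 884 ± 209, Rcvrn at 619 ± 40.1, Sag at 564 ± 63.1, Pde6b at 309 ± 17.1, Gngt1 at 171 ± 60.9, Gnat1 at 63.2 ± 28.0, the Cngb1 entry with a length (ENSMUSG00000031789) at 20.1 ± 13.6, Cnga1 at 9.31 ± 3.70 and Pde6a at 5.29 ± 7.48 (SD, n = 2). In WT it was Pde6g at 1101 ± 36.2, Sag at 946 ± 73.2, Rcvrn at 814 ± 149, Pde6b at 655 ± 196, Gngt1 at 317 ± 13.4, that Cngb1 entry at 63.7 ± 17.8, Gnat1 at 60.1 ± 6.07, Pde6a at 26.9 ± 11.2 and Cnga1 at 19.2 ± 7.35 (SD, n = 2). The Cngb1 entry holds only part of that gene's reads, so its place in the order depends on how they were divided. Neighbours in the WT order whose library values overlap were Sag and Rcvrn, Rcvrn and Pde6b, that Cngb1 entry and Gnat1, and Pde6a and Cnga1. In cKO they were Rcvrn and Sag, the Cngb1 entry and Cnga1, and Cnga1 and Pde6a. The catalytic subunits, which pair in the enzyme, were far apart in level: per kilobase, Pde6b stood at 28.1 times Pde6a in cKO library B, against 22.8 times in WT library A and 27.2 times in WT library B. The ratio of Pde6g to Pde6b per kilobase was 3.21 and 2.48 in cKO libraries A and B, against 1.36 and 2.18 in WT libraries A and B. The ratio of Gngt1 to Gnat1 per kilobase was 1.54 and 4.93 in cKO libraries A and B, against 4.77 and 5.85 in WT libraries A and B. Both cKO values of the first ratio lay above both WT values, and the groups of the second overlapped.

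**Figure D3:**
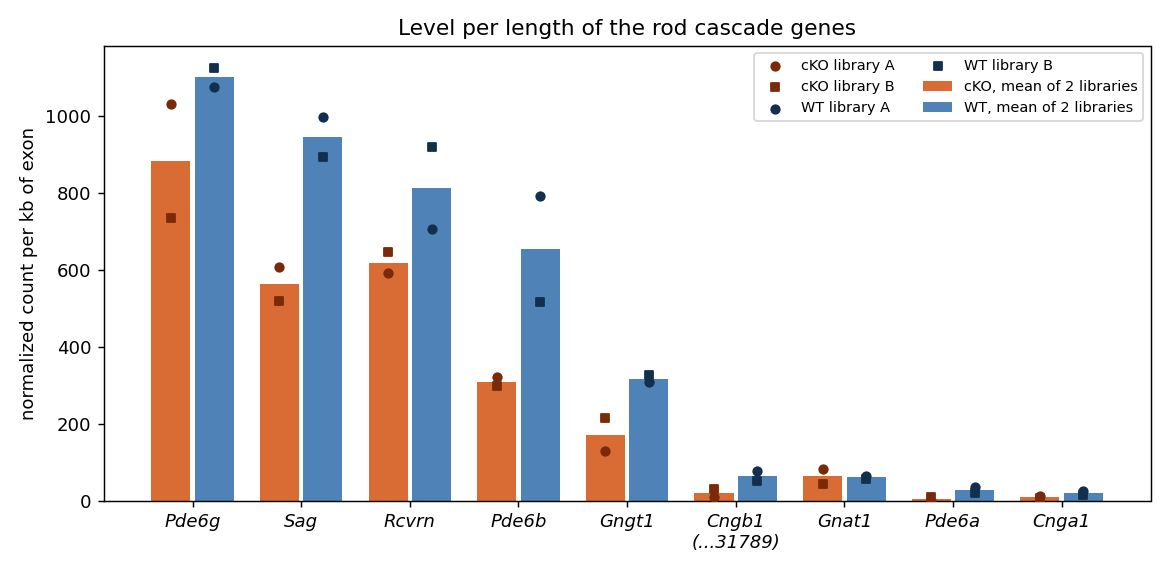
Normalized count per kilobase of exon for the rod cascade entries with a GENCODE M21 length, as the mean of 2 libraries (bars, cKO left of WT) with each library as a point, in falling order of the WT mean. Pde6g, Sag, Rcvrn and Pde6b lie above 500 in WT, and Gnat1, Pde6a and Cnga1 lie below 100 in both groups; the Cngb1 bar is 1 of 2 entries of that gene.

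Other genes of light detection in photoreceptors, taken as a list of 13, were lower in cKO for 9 of 13 tested, of which 6 had no overlap between the groups, and limma called 0 (6 at an unadjusted p under 0.05). The list's median log2 fold change was −0.45. Beside this list and the further ones below, 53.3% of all genes tested were lower in cKO. Of all genes tested, 22.3% were lower without overlap and 1.70% were lower at an unadjusted p under 0.05. Grk1, the kinase that marks the active pigment for arrestin, had 201 and 554 in cKO libraries A and B, against 1197 and 796 in WT libraries A and B. Its log2 fold change was −1.54, and −0.82 without cKO library A. Rgs9, which speeds up GTP hydrolysis by transducin, had a log2 fold change of −0.86, and Rgs9bp, its membrane anchor, −1.47 (−0.79 without cKO library A). Gnb5, the beta subunit that binds Rgs9 and is made by many neurons, had 0.08. Gucy2e, a guanylate cyclase that restores cyclic GMP, had −0.85 and Gucy2f, a second one, −0.24. Of the calcium sensors of that cyclase, Guca1a had 218 and 224 in cKO libraries A and B, against 240 and 204 in WT libraries A and B, and Guca1b was listed at 0 in cKO library A and at 33.1, 31.9 and 34.5 in cKO library B and WT libraries A and B. Pdc, which binds transducin beta and gamma, had −0.70, and Unc119, which carries lipid-modified transducin alpha, had −0.45. Pde6d, a carrier of prenylated proteins used by many cells, had 0.29. Slc24a1, the rod sodium-calcium exchanger, had 69.9 and 9.26 in cKO libraries A and B, against 2.28 and 14.5 in WT libraries A and B, so its higher mean rests on cKO library A.

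Cone counterparts of the cascade are encoded by other genes, and their median lay close to that of the rod genes. All 9 tested of 10 were lower in cKO, 7 without overlap, at a median log2 fold change of −1.05, and limma called 0 (2 at an unadjusted p under 0.05). By normalized count the most abundant were Gnb3, a transducin beta subunit, at −1.05 (−0.45 without cKO library A) and Gngt2, a transducin gamma subunit, at −0.36; Opn1mw was listed at 0 in all 4 libraries. Photoreceptor transcription factors had a median of −0.47, with 7 of 8 lower and 0 called by limma (3 at an unadjusted p under 0.05). By normalized count, not divided by length, the most abundant of this list were Otx2 at −0.40 and Rorb at −0.49, which was 0.07 without cKO library A. The 3 factors at an unadjusted p under 0.05 were Crx, the homeodomain factor of rods and cones, at −0.60, Nrl at −0.55 and Nr2e3 at −1.20. Of the 4 visual cycle genes, 4 were lower, at a median of −0.39, with Rbp3, the retinoid carrier between the cells, at −0.39, Abca4, a retinoid transporter of the outer segment, at −0.38 (−0.03 without WT library A), and 0 called by limma (0 at an unadjusted p under 0.05). Bipolar cell genes had a median of −0.29 in the 5 tested of 7, with 4 lower, 0 called by limma (0 at an unadjusted p under 0.05), Prkca at 0.23 and Cabp5 at −0.29.

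**Figure D4:**
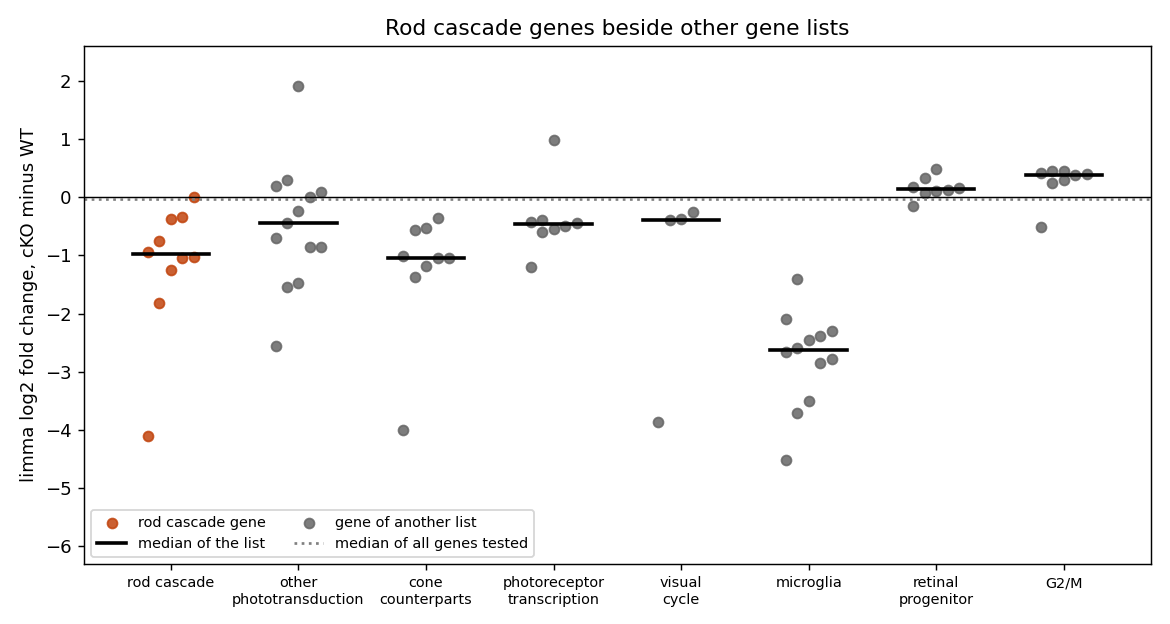
Limma log2 fold change, cKO minus WT, of each tested gene in the rod cascade and in 7 other lists, with the median of each list (bars) and of all genes tested (dotted). The rod cascade median is −0.98, that of the cone counterparts −1.05, that of the photoreceptor transcription factors −0.47, and that of the microglial markers −2.63.

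The genes whose centred profile over the 4 libraries lay nearest to the mean profile of the 10 entries, among 12357 genes that are no member, were Adcy7 at a Euclidean distance of 0.06, Rasgrf2 at 0.12, Kif9 at 0.14, Nr2e3 at 0.14 and Sepp1 at 0.17 on the log2 scale. The entries themselves lay at 0.22 (Cngb1, ENSMUSG00000058253) to 4.65 (Pde6a) from their mean profile, which leans on the value of Pde6a in cKO library A. Nr2e3, a nuclear receptor of rods, had 7558 and 10668 in cKO libraries A and B, against 21789 and 19652 in WT libraries A and B. In the authors' deposited table Nr2e3 had an adjusted p of 0.0118, against 0.771 in limma. With 4 libraries such likeness is a description only.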

How the data were processed

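The deposited table holds a normalized count, a signal per gene and library, for 4 libraries of 4N retinal cells. Per the submitters' processing notes the authors used FastQC, TopHat, HTSeq and DESeq with build mm10; their versions, the strand setting and the annotation are not given in these sources. Values were whole multiples of 1 read per library (100% within 0.01 reads), so reads were recovered. Both cKO columns are headed replicate 2 in the file, so they were assigned to the group only. The authors also deposited a p-value per gene, raw and adjusted.

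Genes with a mean of at least 10 (14480) were fitted with limma on log2(normalized count + 1), two-sided, with a prior that depends on the mean, and p-values were adjusted over all genes by Benjamini-Hochberg, on 2 residual degrees of freedom before moderation. All 10 rod cascade entries passed this filter. Named genes are all members, the 13 genes of the other phototransduction list, the 2 with the highest mean normalized count of each further list and the 5 nearest profiles. Microglial, progenitor and G2/M lists are given as sums and medians, with Pax6 and Mki67 named as lower in cKO. One further gene planned for the phototransduction list is not reported here. Casz1 is the targeted gene. Crx, Nrl, Cx3cr1, Aif1 and Opn1mw were named after their values were seen. The members and lists were chosen with earlier results of these data known. Exon lengths are from GENCODE M21 on GRCm38 (96.1% of identifiers found); the exons of the 9 matched entries share no base with another annotated gene. Alternatives used edgeR and DESeq2 on the recovered reads, other settings, a replicate block and leaving out each library; 13 were planned and 3 added after seeing the data. Fits were run on simulated reads with the same dispersion for every gene and no library that stood apart. That run checks the code and does not measure how the fits perform on these libraries. Software was R 4.3.3, limma 3.58.1, edgeR 4.0.16, DESeq2 1.42.0 and Python 3.11.15.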

Additional observations from a re-analysis of the deposited data

How the results depend on the processing

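The count of 0 rod cascade entries called by limma stayed at 0 with pseudocounts of 0.5 and 5, no filter, a mean of at least 50, median rescaling, no mean-dependent prior, edgeR, DESeq2 and the summed Cngb1 entries. With single libraries left out in turn it was 0 to 6, the count over all genes 0 to 5662, and the median log2 fold change of the entries −1.13 to −0.71; the cause was not tested. Over all genes DESeq2 called 2, of which 1 was lower, Nr2e3 (log2 fold change −1.18, adjusted p = 0.0452). The same-tag libraries' deviations correlate at 0.258 across genes, and no label ties the tags to an experiment. With the replicate block limma and edgeR called 0 genes, with 1375 and 965 at an unadjusted p under 0.05. DESeq2 with the block called 43, of which 1 was a rod cascade entry, Pde6b (log2 fold change −1.04, adjusted p = 0.0433); the block changed no other rod cascade call. Some uncalled log2 fold changes near 0 changed sign. Guca1a was 0.038 with median rescaling, 0.0018 in edgeR, and 0.0065 in edgeR and 0.0032 in DESeq2 with the replicate block. Over left-out libraries Gnat1 was −0.46 to 0.47, Gnb1 −0.029 to 0.42, Gnb5 −0.33 to 0.50, Guca1a −0.12 to 0.11, Gucy2f −0.54 to 0.054, Pde6d −0.015 to 0.60, Rorb −1.05 to 0.071, Pax6 −0.64 to 0.35, Mki67 −1.23 to 0.20 and Prkca −0.021 to 0.47. The rod cascade entries other than Gnat1 were lower in cKO in all 16 alternatives (15 for the Cngb1 entry ENSMUSG00000031789, which the sum replaces), on 27 to 11707 reads per value above 0.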
